A study of Caenorhabditis elegans with 12 samples.

Results

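The genes described here are the C. elegans F-box families fbxa, fbxb and fbxc, read through the small RNAs (sRNAs) antisense to them. Members were all antisense rows of protein-coding genes whose name is fbxa, fbxb or fbxc followed by a number. This gave 321 genes, of 63014 rows in the count matrix and 19691 antisense rows of protein-coding genes. The families had 170 fbxa, 103 fbxb and 48 fbxc genes.

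F-box proteins are the adaptors of SCF ubiquitin ligases. The F-box motif binds a Skp1-like protein (SKR in worms), which joins it to a cullin, and the rest of the protein selects the substrate that receives ubiquitin. The worm genome holds a very large set of F-box genes, many of them in tandem arrays that duplicate and diverge quickly. Most have no assigned substrate, and a few take part in the response to intracellular pathogens. Antisense 22G-RNAs, made by RNA-dependent RNA polymerases and starting with G, guide Argonautes such as WAGO-4 to germline mRNAs.

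The libraries came from whole young adult worms grown at 20 °C. Both genotypes carried WAGO-4 tagged at its own locus on chromosome II, by the wago-4 allele gg620[3xflag::gfp::wago-4], so no untagged worms serve as a control here. WT (strain YY1325 in the labels) had no further allele. The 3×FG worms (SS142) also had, on chromosome I, glh-1(allele50[glh-1F>A]) together with glh-4(allele16[glh-4F>A]) and with glh-2(allele49[glh-2 delFG]), which change the FG repeats of the Vasa-like germ granule helicases GLH-1, GLH-4 and GLH-2. Each genotype had 3 WAGO-4 IPs, made with beads that bind GFP, and 3 inputs, the sRNAs of the same lysates. Each genotype is a single strain.

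The inputs had between 2072770 and 74846970 reads on features. WT inputs 1 and 2 were the shallowest inputs, and their names in the count matrix have another form, without the lane given for the other 4 inputs. They had 3.39% and 5.26% of reads on rRNA, against 15.9% to 21.2% in the others. Across all rows, WT input 3 had correlations of 0.95 to 0.97 with the 3×FG inputs and of 0.86 and 0.90 with the other WT inputs. Antisense reads of the germline genes glh-1, pgl-1, pgl-3, csr-1 and wago-4 were present in all inputs, and all 5 genes were in both target tables. The oocyte and embryo miRNAs mir-35 to mir-41 summed to 17007, 22590 and 38616 CPM (counts per 1000000 reads on features) in the WT inputs. In the 3×FG inputs they summed to 13585, 11926 and 11817 CPM, so the groups did not overlap. Taken singly, mir-35 and mir-40 overlapped, and mir-36, mir-37, mir-38, mir-39 and mir-41 were lower in 3×FG without overlap. Antisense CPM of pgl-1, csr-1 and wago-4 was higher in 3×FG without overlap, and that of glh-1 and pgl-3 overlapped. Of the other markers, the soma miRNAs let-7 (2540 to 2641 CPM in WT, 2884 to 3693 in 3×FG) and mir-228 were higher in 3×FG without overlap. So were the summed antisense reads of the sperm msp genes (45.0 to 75.3 CPM in WT, 75.9 to 101 in 3×FG). The miRNAs lin-4, mir-1, mir-71 and mir-124 overlapped.

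WAGO-4 targets were fewer among the F-box genes than among protein-coding genes as a whole. By the rule of the study, a target reaches 5 RPM (reads per 1000000 reads) in the IP and 2 times its input, and does so in all 3 replicates. Of the 321 members, 13 were in the WT target table (4.05%), compared with 4720 of 19691 protein-coding genes (24.0%). The 3×FG table held 7 members (2.18%), compared with 4085 protein-coding genes (20.7%). All 7 were also in the WT table, 6 members were in the WT table only, none was in the 3×FG table only, and 308 were in neither. Shares in other large worm gene families lay on both sides: the WT table held 6 of 269 nhr genes (2.23%), which encode nuclear hormone receptors, 1 of 37 math genes (2.70%) and 13 of 37 bath genes (35.1%), which encode MATH domain proteins without and with a BTB domain. The rule used the IP and input values, so target status is a description of them. For WT replicates 1 and 2, the input has another form of library name than the IP.

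The families differed in how many targets they held. The fbxa family had 12 of the 13 WT targets (7.06% of its genes). The fbxc family had 1, fbxc-45 (2.08%). No fbxb gene was in either table. Members in both tables were fbxa-101, fbxa-114, fbxa-140, fbxa-145, fbxa-206, fbxa-211 and fbxa-215. Members in the WT table only were fbxa-94, fbxa-107, fbxa-108, fbxa-197, fbxa-216 and fbxc-45.

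The strongest IP level among the members belonged to fbxa-107. Its WT IPs had 357, 331 and 200 RPM and the inputs of the same lysates 109, 110 and 76.3 RPM. The ratio was 2.97 ± 0.33 (SD, n = 3), near the limit of 2 despite the high IP. The only fbxc target, fbxc-45, was of the same kind, with IPs of 117, 123.2 and 141.97 RPM over inputs of 46.9, 52.1 and 38.8 RPM. Its ratio of 2.84 ± 0.71 (SD, n = 3) was the lowest mean of the 13, and its lowest replicate, at 2.36, was the member value closest to the limit in the WT table.

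Other members reached high ratios from low inputs. In WT, fbxa-215 had IPs of 157, 157.96 and 129 RPM over inputs of 11.8, 18.5 and 13.3 RPM, a ratio of 10.5 ± 2.49 (SD, n = 3). The neighbouring genes fbxa-101 and fbxa-140 had mean ratios of 8.44 ± 1.40 and 11.9 ± 1.48 (SD, n = 3). The highest ratio, for fbxa-211, was also the least certain: its inputs were 1.10, 0.30 and 0.91 RPM, and the ratios of 13.1, 46.0 and 24.2 spread accordingly. Members of both tables had mean WT ratios of 5.89 to 27.7 with a median of 9.08. Members of the WT table only had 2.84 to 9.79 with a median of 4.62, so the ranges overlapped. Over the 4850 features of the WT table the median of the mean ratio was 9.05.

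**Figure D1:**
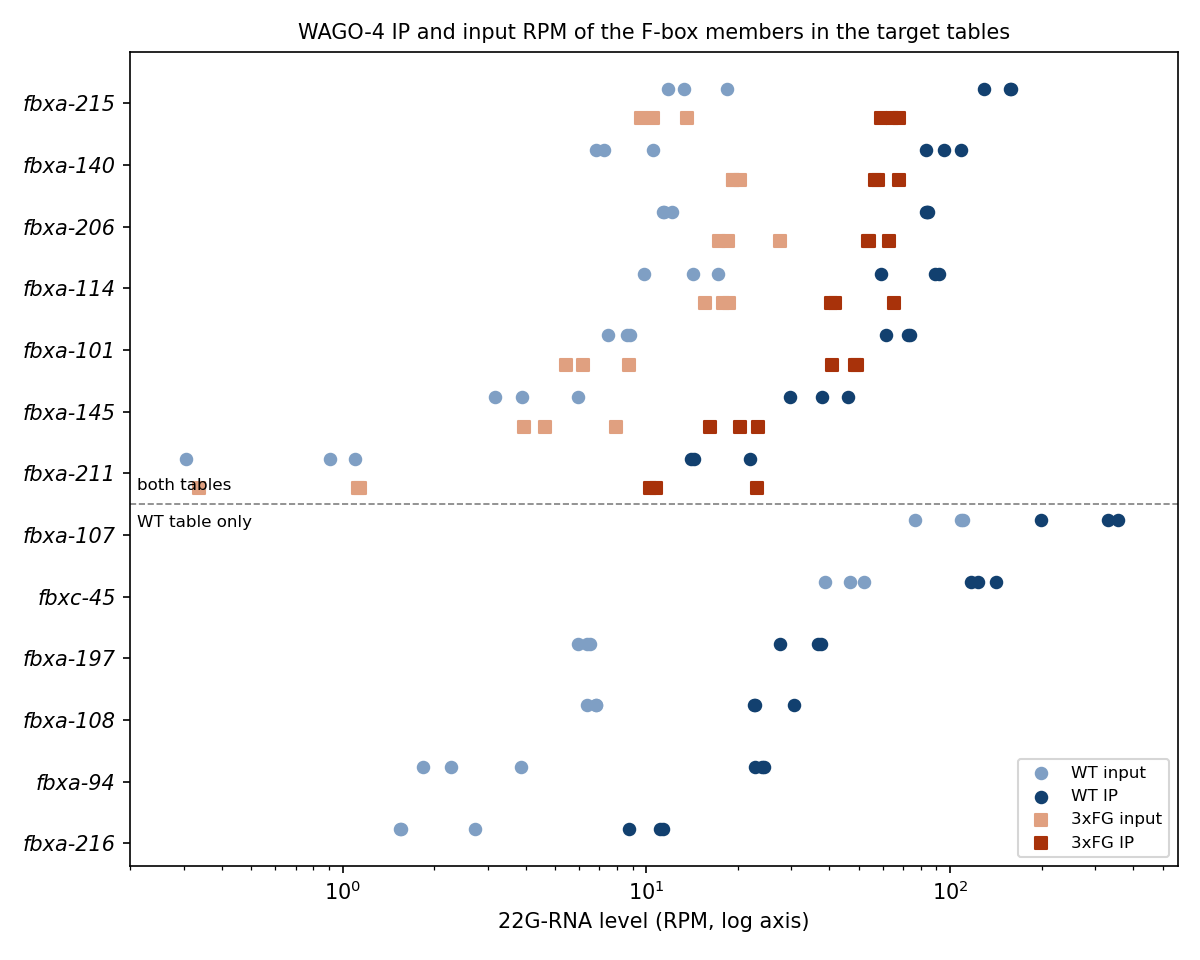
22G-RNA levels in RPM (log axis) of the 13 members in the target tables, 1 point per library, with WT as circles and 3xFG as squares and the IPs in the darker colour. Members above the dashed line are in both tables and have points for all 12 libraries, and the 6 below it have WT points only. For fbxa-140 the 3xFG inputs (19.2 to 20.3 RPM) lie to the right of the WT inputs and the 3xFG IPs (56.6 to 68.1 RPM) to the left of the WT IPs (83.5 to 108 RPM).

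Few members were targets also at input levels at which most other genes were. Among the 82 members with a mean of at least 5 CPM in the WT inputs, 9 were WT targets (10.98%), against 3767 of 5891 other protein-coding genes at these levels (63.9%). Between 5 and 20 CPM, 7 of 43 members were targets (16.3%), against 68.0% of the others. Between 20 and 100 CPM it was 1 of 22 members, fbxc-45, against 68.9%. At 100 CPM or more it was 1 of 17, fbxa-107, against 18.96%. Below 1 CPM, where 160 members lay, 1 was a target (fbxa-211), against 0.197% of the other genes.

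**Figure D2:**
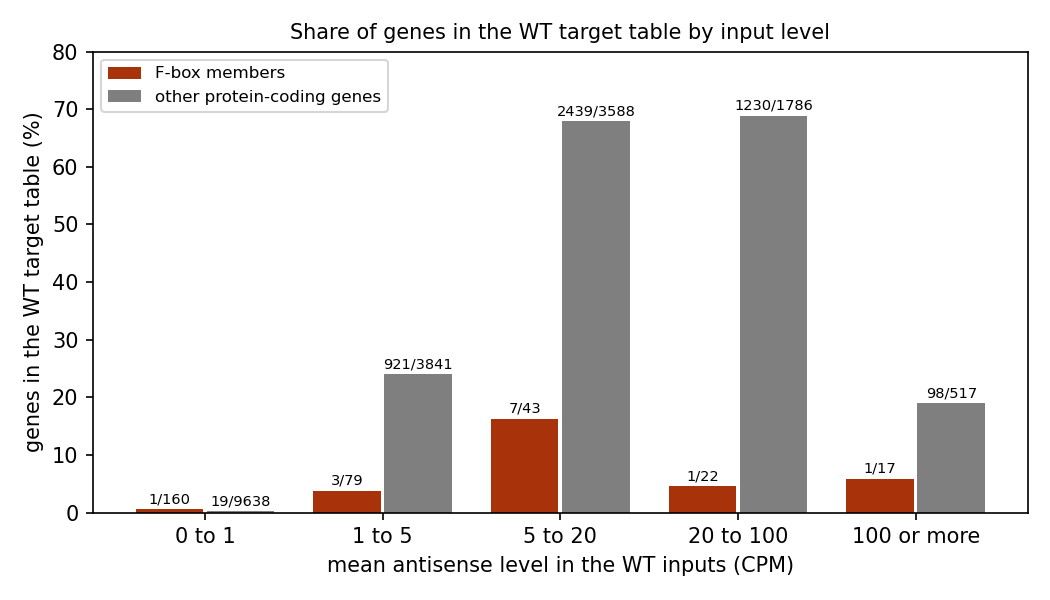
Share of genes in the WT target table (percent) by the mean antisense level in the 3 WT inputs (CPM), for the F-box members and the other protein-coding genes. The numbers on the bars are targets over genes. The members' bars are lower in each bin from 1 CPM upwards, with 7 of 43 members at 5 to 20 CPM against 68.0% of other genes.

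The most abundant members in the inputs were therefore not targets. Each of the 5 members with the most antisense reads in WT was in neither table. Of the members outside the tables, 46 had over 10 CPM in every WT input and 13 had over 100 CPM. At such input levels the RPM limit is met whenever the ratio is, so each of the 46 must have had an IP/input ratio under 2 in at least 1 WT pair. Their IP values were not analysed here.

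Among them, fbxc-43 was the most abundant member. It had 1732, 1798 and 1421 CPM in the WT inputs and 1077, 1070 and 1214 CPM in the 3×FG inputs, which did not overlap. Its edgeR log2 fold change of -0.76 (standard error 0.19, adjusted p = 0.052) did not pass the test. Its neighbour fbxc-44 had 175, 180 and 139.4 CPM in WT and 96.6, 99.6 and 111 CPM in 3×FG.

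The fbxa genes with the most reads were fbxa-218, fbxa-120 and fbxa-67, on chromosomes III, X and III. For fbxa-218 the WT inputs had 1064, 1073 and 756 CPM and the 3×FG inputs 893, 915 and 891 CPM, so the groups overlapped. For fbxa-120 the values were 999, 897 and 612 CPM in WT and 483, 470 and 446 CPM in 3×FG, without overlap. For fbxa-67 they were 524, 518 and 492 CPM in WT and 318, 325 and 344 CPM in 3×FG, again without overlap. None of these 3 genes passed the test.

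Per kilobase of exon, the mean WT input level was 1664 CPM per kb for fbxc-43, 729 for fbxb-97, 722 for fbxa-120, 518 for fbxa-218, 294 for fbxb-85 and 261 for fbxa-67. The targets lay lower on this scale. The highest were fbxa-107 (102 CPM per kb) and fbxc-45 (47.6), followed by fbxa-114 (14.01). The 13 targets had a median of 8.01 CPM per kb and the 308 other members a median of 0.82, with a range from 0 to 1664. Thus the members outside the tables hold both the highest and the lowest antisense levels of the families.

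Antisense reads were detected from most members. More than 3 reads over the 3 inputs of a genotype, the limit that a count of 0 allows, were found for 260 members in WT and 306 in 3×FG. The 3×FG libraries were deeper. At no input was a read found for 5 members (2 fbxa and 3 fbxb). For 3 reads the level is 1.45 CPM in WT input 1 and 0.0401 CPM in 3×FG input 1, so the depth of a library sets which members it can show. The 4 most abundant members took 46.9% to 51.3% of the reads of the families in each input.

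The targets differed from the other members in where they lie. Targets had a median exon length of 1148 bases and 4 exon blocks, and the other members 1100 bases and 3 blocks. Sense reads over the 6 inputs were a median of 6.70% of the antisense reads in the targets and 10.0% in the other members. One target, fbxa-94, shares exon bases with mdt-28 on the opposite strand, as 29 members outside the tables do with another gene, and reads there could come from either. All 13 targets were on chromosomes I, IV and V, where 129 members lie. The 192 members on chromosomes II, III and X had none. On chromosome I, 4 of 16 members were targets, on IV 2 of 27 and on V 7 of 86. Among all protein-coding genes, by contrast, the share of WT targets was 26.1% on chromosome II and 42.6% on III, and 1.12% on X. The 3 autosomes with targets had 40.3%, 26.3% and 13.9%.

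The members lie in tandem arrays. Joining family genes less than 20 kb apart, pseudogenes included, gave 140 runs, in which 248 members had a family neighbour and 73 had no member or pseudogene nearby. The largest run had 31 family genes. Targets were in 11 runs that together hold 30 members. In the run on chromosome V between bases 18123939 and 18137714 (WBcel235), fbxa-107 and fbxa-211 were WT targets, and so were the pseudogenes fbxa-212 and fbxc-46. The fifth gene of the run, fbxa-210, had no read in any input. On chromosome I, between bases 12958640 and 12961619, fbxa-101 and fbxa-140 were both targets in both genotypes.

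Pseudogenes of the families were also among the targets. Of 65 pseudogenes named fbxa, fbxb or fbxc, 10 were in the WT table (15.4%) and 2 in the 3×FG table (3.08%), fbxa-123 and fbxa-124. The members had 4.05% and 2.18%, and the difference was not tested. Among all pseudogenes 55 of 1664 were WT targets (3.31%). In 5 cases a WT target member had a WT target pseudogene of its family as the next family gene: fbxa-108 and fbxa-129, fbxa-197 and fbxa-198, fbxa-206 and fbxa-207, fbxa-211 and fbxa-212, and fbxa-216 and fbxa-217. Reads that match more than one copy can be shared between such neighbours. Identical counts in all inputs were found for fbxc-1 to fbxc-5, for fbxc-8 to fbxc-12, and for fbxa-40, fbxa-41 and fbxa-100, so those rows are not separate measurements.

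The inputs were next compared between 3×FG and WT, to ask whether total antisense sRNAs of the families differ. Antisense reads of the 3 families summed to 9116, 9314 and 7295 CPM in the WT inputs and to 5571, 5591 and 5715 CPM in the 3×FG inputs. The groups did not overlap, with means of 8575 ± 1113 and 5626 ± 77.9 CPM (SD, n = 3). CPM is over all features, rRNA included. The lower rRNA share of WT inputs 1 and 2 (3.39% and 5.26%, against 15.9% to 21.2% in the others) therefore raises their CPM. By family, fbxa had 4361 ± 643 CPM in WT and 3226 ± 108 in 3×FG, fbxb 2026 ± 284 and 960 ± 73.2, and fbxc 2188 ± 239 and 1440 ± 105 (SD, n = 3). No p-value is given for these sums, since 3 libraries against 3 form a small comparison and the families were chosen with earlier results known.

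**Figure D3:**
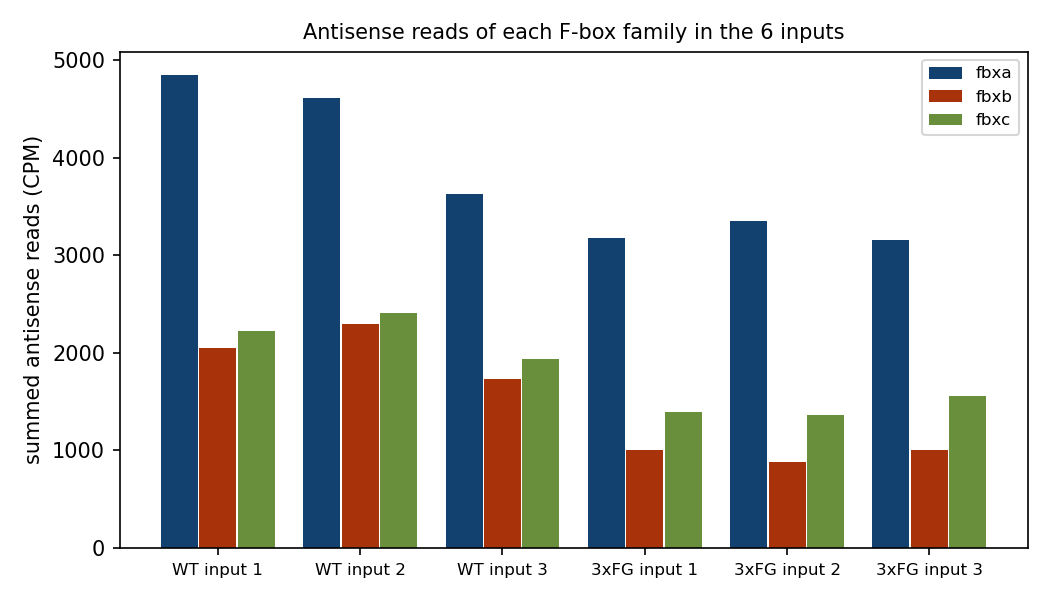
Summed antisense reads of fbxa, fbxb and fbxc in each of the 6 inputs, in CPM on an axis from 0. The 3 WT inputs have higher bars than the 3 3xFG inputs in each family, and WT input 3 is the lowest WT library in each.

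The lower sum came from members outside the target tables. The 13 targets together had 248 ± 37.5 CPM in WT and 305 ± 24.5 CPM in 3×FG (SD, n = 3), and the other 308 had 8327 ± 1077 and 5321 ± 53.9 CPM. As a share of the families' reads, the targets took 2.79% (exact binomial 95% interval 2.56% to 3.04%), 3.02% (2.87% to 3.19%) and 2.84% (2.76% to 2.93%) in the WT inputs. In the 3×FG inputs the share was 5.10% (5.03% to 5.17%), 5.34% (5.25% to 5.43%) and 5.81% (5.63% to 5.99%). The intervals cover counting error only. The WT inputs were also the denominators of the target rule, so this split is a description. The mean share in 3×FG was 1.88 times that in WT, while the targets' summed CPM was 1.23 times that in WT, beside a lower CPM of the other members.

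Gene by gene, 167 members had enough reads for edgeR's quasi-likelihood test, and the 154 others had means of at most 1.50 CPM. Reads were called different at a Benjamini-Hochberg adjusted p under 0.01 over all 22301 rows and a log2 fold change beyond -1 or 1. Of the 167, 14 were lower in 3×FG (8.38%), against 2.04% of all rows tested. None was higher, against 0.839%. At an unadjusted p under 0.05, 80 were lower and 11 higher, against 14.7% and 11% of all rows. DESeq2 called 49 lower and 2 higher, against 7.44% and 3.43%. The median log2 fold change was -0.74 over these members, 0.18 over all rows and 0.10 over antisense rows of protein-coding genes.

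All 14 were outside the target tables. Among them, the largest decrease was that of fbxa-150 on chromosome V. It had 221, 210 and 180 CPM in the WT inputs and 28.9, 24.2 and 24.5 CPM in the 3×FG inputs. Its log2 fold change was -3.17 (standard error 0.20, edgeR adjusted p = 0.00085).

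Among the fbxb genes, the abundant fbxb-97 had 880, 962 and 635 CPM in WT and 299, 263 and 280 CPM in 3×FG. The log2 fold change was -1.76 (standard error 0.23, edgeR adjusted p = 0.0065). On chromosome I, fbxb-100 had 168, 234 and 192 CPM in WT and 57.5, 36.7 and 56.3 CPM in 3×FG (log2 fold change -2.18, standard error 0.25, edgeR adjusted p = 0.0041). Both genes thus had every 3×FG input below every WT input. In contrast, fbxb-85 had 450, 389 and 296 CPM in WT and 297, 305 and 313 CPM in 3×FG, so its groups overlapped.

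Some members at lower levels had larger decreases than fbxb-97 and fbxb-100, and others had smaller ones. For fbxb-91 the WT inputs had 50.2, 97.4 and 82.9 CPM and the 3×FG inputs 14.7, 7.04 and 13.4 CPM (log2 fold change -2.91). For fbxb-45 the values were 38.1, 65.5 and 58.4 CPM in WT and 11.1, 5.58 and 11.1 CPM in 3×FG (-2.75). For fbxc-18 they were 48.2, 80.0 and 59.6 CPM in WT and 16.7, 9.74 and 13.2 CPM in 3×FG (-2.44). These 3 genes lie on chromosome II in different arrays, and the groups did not overlap in any of them.

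On chromosome III, fbxa-60 had 72.4, 48.2 and 39.2 CPM in WT and 10.9, 13.2 and 9.17 CPM in 3×FG (log2 fold change -2.44). It lies in an array of 12 family genes with fbxa-10 and fbxa-11, which were also lower, by log2 fold changes of -1.97 and -1.70. The abundant fbxa-67 is in the same array. The other members called lower were fbxa-115 (-2.27), fbxb-93 (-2.09), fbxb-46 (-1.86), fbxa-184 (-1.56) and fbxc-42 (-1.37). In all 14, which were called on these same libraries, the CPM of each 3×FG input was below that of each WT input. Of these, fbxa-115 lies next to the target fbxa-114, which had 15.9, 19.2 and 10.9 CPM in WT and 17.5, 20.5 and 20.0 CPM in 3×FG.

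**Figure D4:**
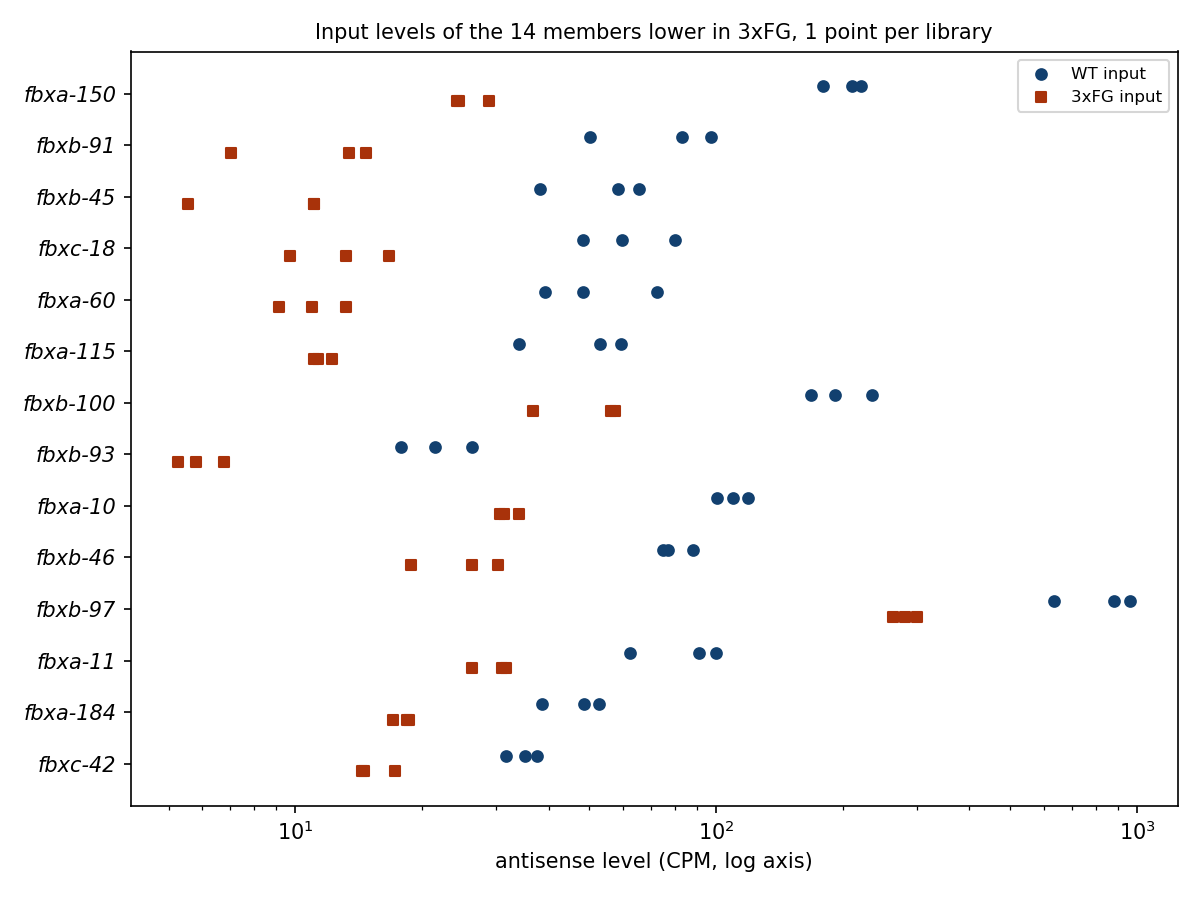
Antisense levels (CPM, log axis) of the 14 members that were lower in 3xFG by the edgeR test, ordered by log2 fold change, with 1 point per input library. In each gene the 3 squares (3xFG) lie to the left of the 3 circles (WT), from fbxa-150 at the top (log2 fold change -3.17) to fbxc-42 at the bottom (-1.37).

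Overlap between the groups was then counted over all 167 members, the 14 included. After TMM scaling, which matches the bulk of rows between libraries, 87 had all 3×FG inputs below all WT inputs, against 15.8% of all rows tested, and 16 had them above, against 18.4%. Of the 153 members that were not called, 73 were below and 16 above. With CPM alone, 75 of the 167 were below, against 12.9% of all rows, and 22 above, against 24%. Members were also taken by their mean over all 6 inputs, a filter that does not use the groups. A gene high in one genotype only can still pass it, so these shares are a description. Of 57 members with a mean of at least 10 CPM, 37 were below (64.9%) and 5 above, against 23.7% and 34.5% of 4384 other protein-coding genes. Outside the WT table, it was 36 of 50 members below (72.0%), against 40.3% of 1526 other genes. Over all 321 members, without any filter, 109 were below and 31 above, against 14.3% and 18.1% of the 19370 other protein-coding genes.

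By family, the median log2 fold change of the tested members was -0.58 for 85 fbxa genes, -1.11 for 58 fbxb genes and -0.70 for 24 fbxc genes. The calls were 6, 6 and 2. By class, the 13 targets had a median of 0.05 and no call in either direction, with 2 lower and 3 higher at an unadjusted p under 0.05 and none called by DESeq2. Antisense rows of protein-coding genes in the WT table had a median of 0.14 over 4718 rows. The target rule used these WT inputs as denominators, so the split by class is a description and was not tested. Without WT input 3, 1 target was called lower and 1 higher. The 154 tested members outside the tables had a median of -0.83. Antisense rows of protein-coding genes outside the WT table had a median of 0.05 over 6145 rows, and 25.8% of them had non-overlapping lower values, against 54.5% of these members.

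Single targets were near or above their WT level in the 3×FG inputs. In WT, fbxa-140 had 7.72, 7.76 and 12.1 CPM, and in 3×FG 21.2, 22.2 and 21.0 CPM, without overlap, but its log2 fold change of 1.03 did not pass the test (edgeR adjusted p = 0.038). For fbxa-108 the values were 7.72, 7.35 and 7.10 CPM in WT and 15.9, 16.6 and 16.3 CPM in 3×FG (log2 fold change 0.95, edgeR adjusted p = 0.040). The abundant fbxa-107 had 120, 122 and 82.2 CPM in WT and 121, 127 and 137.6 CPM in 3×FG, which overlapped. For fbxa-94 and fbxa-216, both below 3 CPM in the WT inputs on average, the values were lower in 3×FG, with log2 fold changes of -1.63 and -1.43 that did not pass the test (edgeR adjusted p = 0.091 and 0.13).

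**Figure D5:**
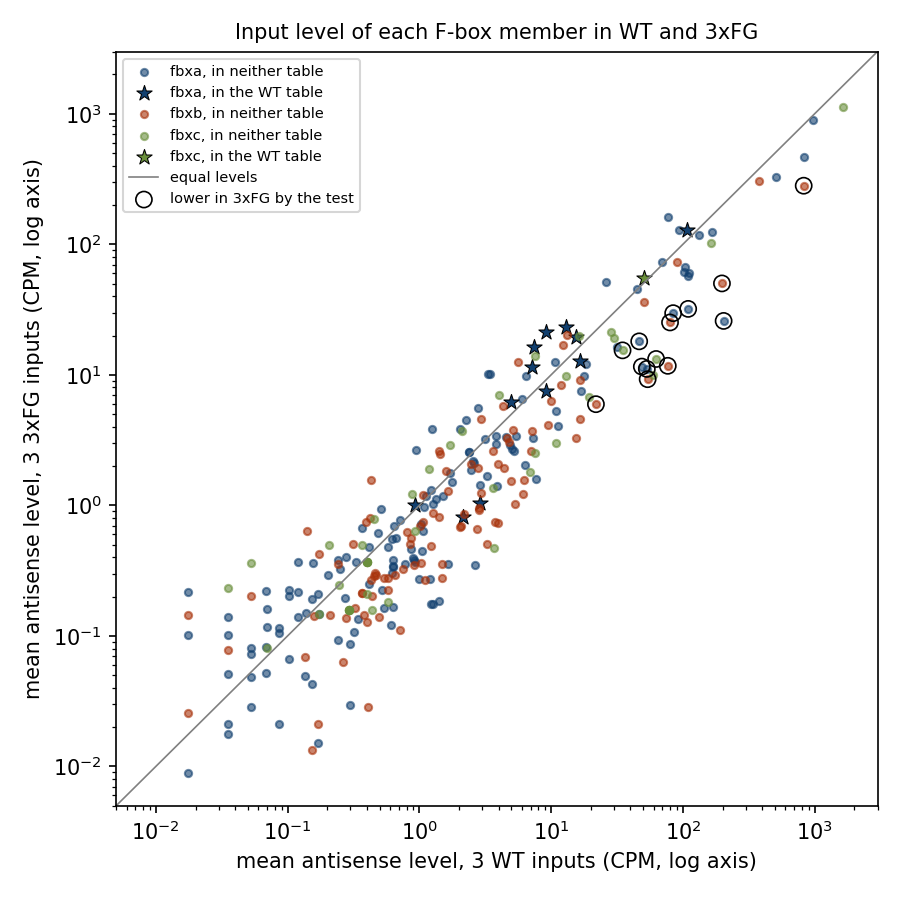
Mean antisense level of each member in the 3 WT inputs (x) and the 3 3xFG inputs (y), in CPM on log axes, with colour for the family, stars for WT targets and rings for members lower in 3xFG by the test. Of the 296 members with reads in both genotypes, 200 lie below the line of equal levels and 96 above it, and the rings are all on members outside the target tables.

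An exception among abundant members outside the tables, chosen after its values were seen, was fbxa-224. It had 105, 69.2 and 55.1 CPM in WT and 162, 191 and 135.6 CPM in 3×FG. The groups did not overlap, and the log2 fold change of 0.90 did not pass the test (edgeR adjusted p = 0.10).

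The number of calls depended on the fit. Without 3×FG input 1, 2 or 3, the members called lower were 1, 0 and 0, against 0.171%, 0.0179% and 0.00386% of all rows, and none was called higher. Without WT input 1 or WT input 2 they were 5 and 2, against 0.924% and 0.428%. Without WT input 3 it was 52, with 50 lower, against 13.9% of all rows in that fit, and 2 higher, against 17.9%. With the form of the library name as a term 31 were lower, against 3.82% of rows, and 3 higher, against 2.96%. Within the form shared by WT input 3 and all 3×FG inputs 34 of 249 were lower, against 2.83%, and 3 higher, against 2.44%. The fit within the shared form has 1 WT library, so it measures no spread between WT inputs. With the form as a term, the difference between genotypes rests on WT input 3 alone. The calls of these fits therefore cannot decide whether the decrease holds across WT lysates. The median of the members outside the tables was between -0.94 and -0.46 in all fits run that included them, and that of the targets between -0.09 and 0.33. The summed mir-35 to mir-41 level, given above, was also lower in 3×FG, while antisense reads of pgl-1, csr-1 and wago-4 were higher. The levels of let-7, mir-228 and the summed msp reads were higher in 3×FG too. Whether the content of oocytes and embryos has a part in the families' difference was not tested. In whole worms, fewer cells that make an sRNA and less of it per cell cannot be told apart.

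The partners of F-box proteins were examined beside the families. Of 39 SCF core and cullin partner genes, 37 had a row and 25 were tested. Of the 37, 20 were WT targets and 18 were targets in both genotypes. One, skr-21, a Skp1-related gene, was lower in 3×FG inputs (log2 fold change -1.58, edgeR adjusted p = 0.0043), and the median of the 25 was 0.18. Of 9 other named F-box genes, among them lin-23, sel-10 and prom-1, 7 were targets in both genotypes. None of the 9 was called by edgeR, with 2 lower and 1 higher at an unadjusted p under 0.05, and their median was 0.06.

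The members fbxa-75 and fbxa-158 encode F-box proteins of the CUL-6 ubiquitin ligase, which acts in the intracellular pathogen response. No read of fbxa-75 was found in any input. For fbxa-158 there were 0, 0 and 3 reads in the WT inputs and 4, 4 and 0 in the 3×FG inputs, too few to test. Of the 9 genes of this list, 3 were tested and none was a target. The regulator pals-22 was lower in 3×FG (log2 fold change -1.40, edgeR adjusted p = 0.0052), and so was pals-25 (-1.83, edgeR adjusted p = 0.0047). The Skp1-related skr-3 had a log2 fold change of -2.32 that did not pass (edgeR adjusted p = 0.061).

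The WAGO-4 IPs were then compared over the 4080 features in both target tables, which hold 7 members. This asks whether WAGO-4 carried less 22G-RNA of the shared F-box targets in 3×FG. All 7 had a lower mean IP level in 3×FG. In 5 of them every 3×FG IP was below every WT IP, against 51.7% of all features tested, so the members' share is near this background.

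The gene that passed the test was fbxa-215. It had 157, 157.96 and 129 RPM in the WT IPs and 67.9, 64.4 and 59.0 RPM in the 3×FG IPs. The log2 fold change was -1.20 on log2(RPM + 1) (standard error 0.11, limma adjusted p = 2.2e-05). Thus 1 of 7 members was lower, against 19.7% of all features. None was higher, against 0.613%. At an unadjusted p under 0.05, 6 of the 7 were lower, against 51.1% of all features, and none was higher, against 15.2%.

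The other 6 had smaller differences. For fbxa-145 the WT IPs had 37.95, 46.03 and 29.6 RPM and the 3×FG IPs 16.2, 23.4 and 20.4 RPM (log2 fold change -0.88, limma adjusted p = 0.0029). For fbxa-206 the values were 82.9, 83.7 and 84.6 RPM in WT and 53.8, 54.2 and 63.1 RPM in 3×FG (-0.55, limma adjusted p = 0.0012). Both were without overlap but within the fold limit. For fbxa-211 they were 14.3, 14.01 and 21.99 RPM in WT and 23.1, 10.3 and 10.7 RPM in 3×FG, which overlapped (-0.24, limma adjusted p = 0.50). The median over the 7 members was -0.64, and -0.30 over all features tested.

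The change of IP over input was the measure in which most shared members passed. Of 7 members, 4 were lower in 3×FG, against 24.1% of all features. None was higher, against 0.245%. At an unadjusted p under 0.05, 5 of the 7 were lower, against 58.7% of all features, and none was higher, against 0.956%. The median was -1.05 over the members and -0.67 over all features. The tables were made with these IPs and inputs, so only features enriched in both genotypes enter.

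The largest change was that of fbxa-140, at -1.83 (standard error 0.27, limma adjusted p = 5.9e-06). Its WT inputs had 7.25, 6.83 and 10.5 RPM under IPs of 95.7, 83.5 and 108 RPM. In 3×FG the inputs had 19.2, 20.3 and 19.2 RPM under IPs of 68.1, 57.7 and 56.6 RPM. The input was thus higher and the IP lower, and the ratio went from 11.9 ± 1.48 to 3.11 ± 0.38 (SD, n = 3).

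The ratio of fbxa-206 went from 7.20 ± 0.26 to 2.78 ± 0.42 (SD, n = 3), a change of -1.33 (standard error 0.26, limma adjusted p = 0.00023), with inputs of 11.3 to 12.1 RPM in WT and 17.3 to 27.4 RPM in 3×FG. For fbxa-145 the change was -1.15 (standard error 0.33, limma adjusted p = 0.0057) and the ratio went from 9.08 ± 2.48 to 3.90 ± 1.25 (SD, n = 3). For fbxa-114 the change was -1.05 (standard error 0.31, limma adjusted p = 0.0066) and the ratio went from 5.89 ± 0.66 to 2.81 ± 0.63 (SD, n = 3). In these 4 genes, which were called on the same values, every 3×FG ratio was below every WT ratio. The share of all features with such ratios was not counted. For fbxa-114 the lowest 3×FG ratio was 2.25, the member value closest to the limit of 2 in the 3×FG table.

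In contrast, fbxa-101, next to fbxa-140, changed by -0.30 (limma adjusted p = 0.34), with ratios of 8.44 ± 1.40 in WT and 7.18 ± 2.26 in 3×FG (SD, n = 3). For fbxa-211 the value was -0.32 (limma adjusted p = 0.46), and for fbxa-215 it was -0.87 (limma adjusted p = 0.010), outside both the limit for the adjusted p and that for the fold. After TMM scaling, which moved the median of all features from -0.67 to -0.08, fbxa-140 alone was still called, and in the IPs no member was. With a pseudocount of 0.1 or 5 RPM in place of 1, 2 members were called, and likewise 2 without WT replicate 1, 3×FG replicate 1 or 3×FG replicate 3. In the IPs alone, leaving out WT replicate 3 gave 2 calls, fbxa-215 and fbxa-145.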

How the data were processed

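sRNAs were sequenced from 12 libraries, 3 IPs and 3 inputs per genotype. The submitters' processing notes name the trimming tool cutadapt 1.15, the aligner STAR 2.6.0c and the builds ce11 and ce10, with no role for each build. The counting tool, its treatment of reads with several matches and the annotation are not given in the sources used here. The authors deposited raw counts of the inputs per feature and strand, and RPM of IP and input for the targets of each genotype, to which 0.01 had been added. In each target table, 6 columns with ratios and means made by the authors were not used. Reads on no feature (4.58% to 6.14%) were left out of library sizes.

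Groups and lysate pairs came from the labels. Counts were tested with edgeR 4.0.16 (TMM, filterByExpr) over all rows, and log2(RPM + 1) with limma 3.58.1 (trend), for IP over input as an interaction. A call needed a Benjamini-Hochberg adjusted p under 0.01 together with a log2 fold change beyond -1 or 1. DESeq2 1.42.0, other filters, scalings, pseudocounts, the form of the library name (2 WT inputs against the rest), blocks and left-out replicates were alternatives. R 4.3.3, Python 3.11.15 and matplotlib 3.10.9 were used. The tests were also run on simulated data with known changes. Those data had no difference tied to the form of the library name, so they say nothing on its effect. Gene positions were matched by WormBase identifier in Ensembl release 115 (WBcel235). The strain of the 3×FG libraries has another prefix in the labels than in the study's strain list and was matched by number and genotype.

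The members, lists and tests were chosen with earlier results of these data known. Named genes were, per family and class, the 3 with the highest mean input CPM, up to 5 called genes per test and direction, and the 5 with the highest WT IP (22 genes). The part of this rule that needs protein sequences was not used here. Others are named for their place in an array, a list or a table. Nothing in the labels says that the replicates were grown separately beyond their lysates, so p-values measure the spread between these libraries. IP and input libraries of one lysate share a replicate name in the labels. The correlation of their deviations from the group means was 0.01 to 0.12. Depth was 2072770 to 74846970 reads.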

Additional observations from a re-analysis of the deposited data

Results flagged for a closer look

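The IP/input change between genotypes was tested directly as an interaction, and 4 of 7 members were lower in it, against 24.1% of all 4080 features. The change of IP over input in 3×FG against WT was -1.83 for fbxa-140, -1.33 for fbxa-206, -1.15 for fbxa-145 and -1.05 for fbxa-114, on log2(RPM + 1) with limma (adjusted p = 5.9e-06, 0.00023, 0.0057 and 0.0066). At an unadjusted p under 0.05, 5 of 7 members were lower, against 58.7% of all features. All 3 lysates of 3×FG had a lower ratio than all 3 of WT in each of the 4 genes. The genes were picked by these same values, and the share of all features with such ratios was not counted. The WT ratios of replicates 1 and 2 set inputs of another library-name form under their IPs, and no 3×FG ratio does. With WT input 3 as the only WT input, the median change was -1.24 over the members and -0.53 over all features. TMM scaling left 1 call (fbxa-140). Pseudocounts of 0.1 or 5 left 2, as did leaving out WT replicate 1, 3×FG replicate 1 or 3×FG replicate 3.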

How the results depend on the processing

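Against 14 members called in the inputs (all lower), DESeq2 called 51, a fit of coding antisense rows alone 58, the form of the library name as a term 34 and the form shared with 3×FG alone 37, and a fit of WT target features alone, which holds 13 members, called 0. Of the 58, 55 were lower, against 11.6% of rows in that fit, and 3 were higher, against 7.42%. In the fit of WT target features alone, 6.64% of rows were called lower and 2.62% higher. Both fits that use the form of the library name compare 3×FG with WT input 3 as the only WT library of the shared form. Leaving out 1 replicate gave 0 to 52. With the replicate number as a block, edgeR called 0 members and 0 rows in all. The numbers do not pair WT with 3×FG inputs: the correlations of same-numbered deviations were -0.31, -0.02 and -0.26. Without TMM, without a filter, and with a mean of at least 10 counts, 13 were called, all lower, against 1.73%, 0.782% and 1.54% of rows. Without WT replicate 3, 1 target was called lower and 1 higher. In the IPs, TMM scaling gave 0 in place of 1 call and leaving out 1 replicate 1 to 2. Of the 4080 features, 803 were called lower in the main fit, 545 with TMM scaling and 763 to 863 with 1 replicate left out. For IP over input, pseudocounts of 0.1 and 5 gave 2 in place of 4, TMM scaling 1, leaving out 1 replicate 2 to 4, and the lysate as a block 4. There, 983 of the 4080 features were called lower in the main fit. It was 866 and 789 with those pseudocounts, 122 with TMM scaling, 541 to 1409 with 1 replicate left out and 1021 with the block. The 3×FG table held 3 members in place of 7 with a ratio of at least 3, also 3 with a mean IP of at least 10 RPM and a mean ratio of 4, and 3 to 4 where that ratio of 3 was asked of the replicates left after 1 was taken out. The targets' share of the families' reads in 3×FG was 1.88 times that in WT, and their CPM over all features 1.23 times. No named gene reversed its direction past the test. The 7 named genes called in the inputs kept their call in 61 of 98 alternative fits and lost it in 37. The 15 named genes not called gained one in 4 of 219. The depth of WT input 1, where 3 reads are 1.45 CPM, limits the weakest members.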
